A study of Mus musculus with 3 samples.

Results

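Neutrophils are short-lived granulocytes that leave the bone marrow, circulate in blood and adhere in the liver sinusoids. They carry large amounts of the calcium-binding pair S100A8 and S100A9 (calprotectin), and while they mature in the marrow they fill primary, secondary and tertiary granules with antimicrobial proteins and proteases. Chemokine receptors steer their release and homing, and stimulated neutrophils make interleukin 1 beta and CXC chemokines that draw in further leukocytes.

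Neutrophils were chosen by their own measured transcripts, as the barcodes (1 barcode stands for 1 captured cell) with at least 200 detected genes, at most 20% of their unique molecular identifiers (UMIs, each 1 captured transcript) from mitochondrial genes, at least 20 UMIs of S100a8 and S100a9 together, and at least 2 UMIs of Retnlg, Csf3r and Cxcr2 together. The rule found 54 neutrophils among the 3230 barcodes that passed the gene and mitochondrial limits, of 4638 in all. They were 1.67% of the kept barcodes (exact 95% binomial interval 1.26 to 2.18). Intervals throughout cover counting error only, not differences between mice or the spread of levels between cells.

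The cells came from Ai14 reporter mice, whose LSL-Tomato allele is switched on by Cre recombinase and was shared by all groups. One group received 20a-LNP, lipid nanoparticles named 20α in the series' design, with 0.3 mg/kg Cre mRNA; the second received 20mix-LNP with the same mRNA dose, and the control group received PBS. Livers were perfused and digested with collagenases and hyaluronidase 3 h after injection, red blood cells were lysed, and non-parenchymal cells were sorted by flow cytometry before about 2000 cells per treatment were loaded for 3′ single-cell RNA sequencing. The sources used here do not state the age or sex of the mice, how many mice made up a library, or the sorting gates.

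There was 1 library per treatment, told apart in the matrix by barcode suffixes 1, 2 and 3, and nothing in the labels or files used here ties a suffix to a treatment. Values are therefore given per suffix, no treatment is compared with another, and no test or p-value is given. Suffix 1 held 21 neutrophils of 761 kept barcodes (2.76%, 1.72 to 4.19), suffix 2 held 22 of 1119 (1.97%, 1.24 to 2.96) and suffix 3 held 11 of 1350 (0.815%, 0.407 to 1.45). The intervals of suffixes 1 and 3 do not overlap, and that of suffix 2 overlaps both. These shares follow a sort and the filter on barcodes, which took out 37.2% of suffix 1, 34.2% of suffix 2 and 21.8% of suffix 3; their part in the shares was not tested. Of all barcodes, 6 shared their sequence with a barcode of another library, and 0 of these were neutrophils.

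The 54 neutrophils held 230144 UMIs. A neutrophil had a median of 4079 UMIs (2557 to 9170) from a median of 1290.5 genes (946 to 1693), and a median of 3.41% mitochondrial UMIs (0.165 to 14.9). Levels are CPM, a gene's UMIs per 1000000 UMIs summed over a group of cells; since each transcript is counted once, at its 3′ end, they are not divided by gene length. Neutrophils are set beside 23 barcodes of a monocyte gate (Ly6c2 with F13a1, Chil3, Ms4a4c or Fn1; 262201 UMIs, median 12722 per cell) and 165 Kupffer cells, the resident macrophages (Clec4f, Vsig4 and Cd5l; 812078 UMIs, median 3873). The monocyte gate was not pure: class II antigen presentation genes were high in it, with Cd74 at 8612 CPM and Apoe at 5362 CPM, so it stands for Ly6c2-positive myeloid cells and not for monocytes alone. Its deeper cells and the shallower neutrophils are compared after scaling; how far the ratios move at equal depth is given with the other processing settings.

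The genes of the rule describe how the cells were chosen and support nothing further. S100a9 stood at 50820 CPM in the summed neutrophils, with 41936 CPM in suffix 1, 70578 in suffix 2 and 22411 in suffix 3. S100a8 stood at 37429 CPM, with 31903, 52079 and 14228 CPM in suffixes 1, 2 and 3. Retnlg, which encodes a small secreted resistin-like protein of neutrophils, stood at 8199 CPM with 6607, 12441 and 1465 CPM. All 3 genes were lowest in suffix 3 and highest in suffix 2 as summed, but a pair of suffix 2 neutrophils held 826 of the 1253 Retnlg UMIs there. Without that pair suffix 2 stood at 46698 CPM of S100a9, 34352 CPM of S100a8 and 5118 CPM of Retnlg, so that Retnlg was then below its level in suffix 1. The median neutrophil had 4583 CPM of Retnlg in suffix 1, 3223 in suffix 2 and 564 in suffix 3. Csf3r, the receptor for granulocyte colony-stimulating factor, was more even at 2141, 1986 and 2674 CPM, and so was Cxcr2, the receptor for CXCL1 and CXCL2, at 1122, 1043 and 999.7 CPM. S100a9 was present in all 54 neutrophils, S100a8 in 53, Cxcr2 in 50 and Retnlg in 45.

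Single neutrophils differed widely in these transcripts. S100a8 and S100a9 made up a median of 5.87% of a neutrophil's UMIs, from 0.727% to 32.7%, and 3 neutrophils exceeded 20%. The median was 5.30% in suffix 1, 6.83% in suffix 2 and 2.71% in suffix 3, and the cells of the 3 libraries overlapped. The neutrophils just inside the limit of 20 UMIs had 24, 27, 28 and 43 UMIs of the pair. Just outside it, 8 kept barcodes met the Retnlg, Csf3r and Cxcr2 limit with 19, 18, 12, 10, 7, 7, 2 and 1 UMIs of the pair. In that order they had 16, 77, 66, 7, 11, 85, 13 and 16 UMIs of Il1b. Of G0s2, Il1r2 and Hdc together they had 14, 18, 67, 28, 31, 29, 13 and 12 UMIs. The barcode with 19 UMIs of the pair held 14832 UMIs in all, above every neutrophil. A further 42 barcodes met that second limit with no UMI of the pair, and 0 kept barcodes met the first limit and missed the second.

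**Figure D1:**
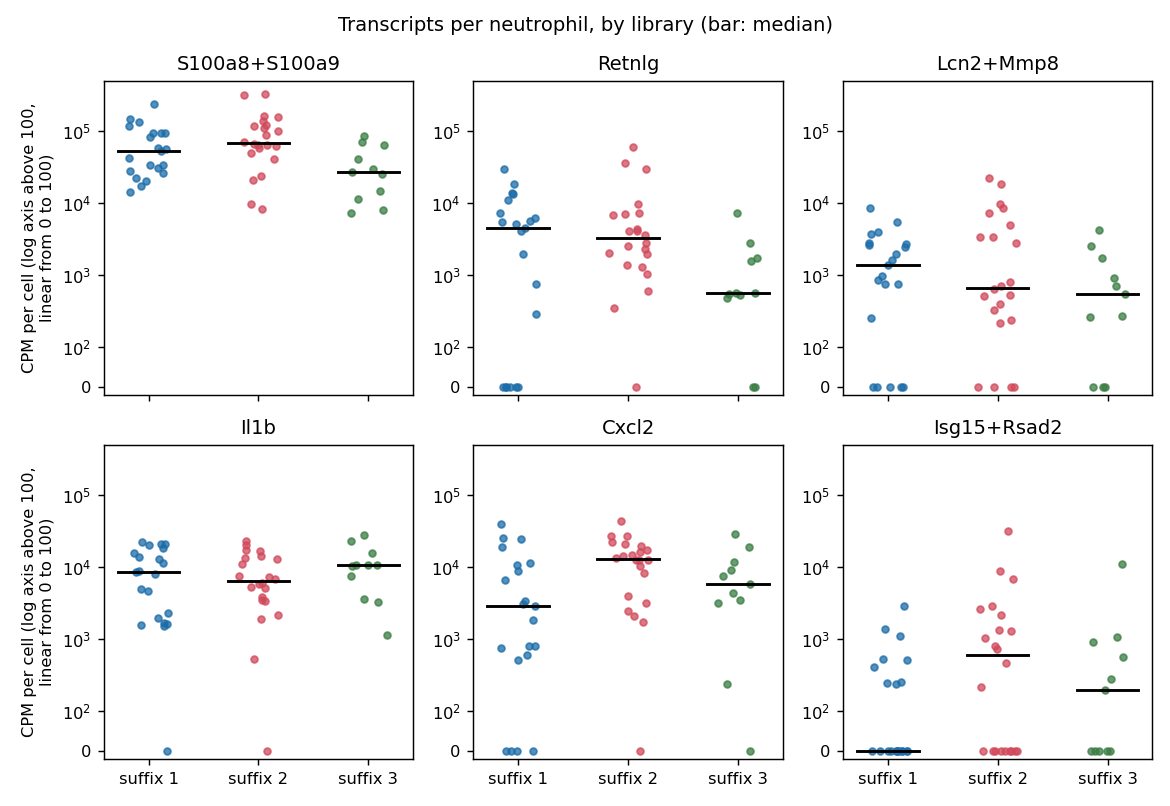
CPM of single transcripts or pairs in each of the 54 neutrophils (points), by barcode suffix on the x axis, with the median as a bar; the y axis is logarithmic above 100 CPM and linear from 0 to 100. S100a8 plus S100a9 runs from 7270 to 327046 CPM and Il1b is at 0 in 2 cells, while Isg15 plus Rsad2 is at 0 in 26 cells and reaches 31779 CPM in 1 cell of suffix 2.

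S100a9 lies on chromosome 3 (GRCm38, GENCODE, chr3:90692632-90695721, minus strand), near S100a8 (chr3:90668978-90670035, plus strand). The 250 bases before the S100a9 start (RefSeq, GRCm38.p6, chr3:90695722-90695971, minus strand) are shown because this transcript was the most abundant of the rule; capitals mark a match to the C/EBP-like letters TTGCNNAA, and C/EBP factors are regulators of granulocyte genes.
S100a9: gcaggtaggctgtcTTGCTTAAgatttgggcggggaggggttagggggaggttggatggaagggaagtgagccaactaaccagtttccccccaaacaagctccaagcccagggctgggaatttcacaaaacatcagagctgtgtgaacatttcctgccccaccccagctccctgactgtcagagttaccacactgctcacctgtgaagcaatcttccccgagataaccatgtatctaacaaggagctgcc
The match lies 236 to 229 bases before the start, and 9.56% of 32851 promoter windows of the RefSeq table hold these letters on either strand. The match is a description of the sequence and no measure of binding. The transcript of the factor Cebpb stood at 7430 CPM in neutrophils, 900.1 CPM in the monocyte gate and 516 CPM in Kupffer cells.

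The neutrophil label was checked against 25 genes of mature neutrophils that the rule did not use. Together they stood at 30290 CPM in neutrophils, 1575 CPM in the monocyte gate and 293 CPM in Kupffer cells, and were higher in neutrophils in 3 of 3 libraries. Of the 22 members with enough counts against the monocyte gate (at least 10 UMIs in both groups together), 21 were at least 2-fold higher and 0 at least 2-fold lower; over all 4975 genes compared, 23.2% were at least 2-fold higher and 37.3% at least 2-fold lower. Against Kupffer cells 22 of 22 were higher by that measure, where 15.6% of 7550 genes were higher and 39.8% lower. These counts of fold sizes are no test, and the list holds genes already known from neutrophils, so its direction is no independent evidence.

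The members of that list reached high levels. G0s2, an inhibitor of the lipase ATGL, stood at 3693 CPM in neutrophils against 3.81 CPM in the monocyte gate and 2.46 CPM in Kupffer cells, and 43 of 54 neutrophils held it. Hdc, which makes histamine, stood at 2294 CPM in neutrophils and was found in all 54, with 11.4 CPM in the monocyte gate and 0 in Kupffer cells. Il1r2, the decoy receptor for interleukin 1, stood at 2146 CPM in neutrophils against 7.63 CPM in the monocyte gate and 0 in Kupffer cells. These 3 transcripts were thus near absent from both other groups. Mxd1, a repressor of the MYC network, stood at 2668 CPM in neutrophils, 38.1 CPM in the monocyte gate and 14.8 CPM in Kupffer cells, and Trem1, an activating receptor of myeloid cells, at 734 CPM in neutrophils, 11.4 CPM in the monocyte gate and 0 in Kupffer cells. Clec4d, a C-type lectin, stood at 1777 CPM in neutrophils, 26.7 CPM in the monocyte gate and 13.5 CPM in Kupffer cells. Ly6g, the surface marker most used to sort mouse neutrophils, was sparse: 15 UMIs in 8 of 54 neutrophils, and 0 UMIs in the monocyte gate and Kupffer cells. Cxcr1 had 1 UMI.

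Transcripts of other cell types were few in the neutrophils. The 8 Kupffer markers summed to 2 UMIs with 6 of them at 0, the 5 plasmacytoid dendritic markers to 2 UMIs, the 7 T cell markers to 4 UMIs and the 6 NK and ILC1 markers to 2 UMIs. Basophil, mast cell and stellate cell markers were at 0 UMIs. Eosinophil markers summed to 4 UMIs, all Siglecf, with Epx, Prg2, Ccr3 and Il5ra at 0. The 8 hepatocyte markers summed to 60 UMIs over 32 neutrophils, at most 4 in 1 cell. Markers of sinusoidal endothelial cells summed to 19 UMIs, of conventional dendritic cells to 13, of B cells to 12, of erythroid cells to 12 and of platelets to 1. Of the 7 monocyte markers F13a1 and Ms4a4c were at 0 and the set summed to 154 UMIs over 33 neutrophils, 92 of them Chil3; 7 neutrophils had 5 or more. Doublets were not called. In the other direction S100a8 and S100a9 were at 0 in the monocyte gate and Kupffer cells. They were found in 4 of 907 sinusoidal endothelial cells (0.441%, median 5809 UMIs) and 6 of 409 plasmacytoid dendritic cells (1.47%, median 11490 UMIs). Both genes belong to the rule, and every kept barcode that met its limit on the pair was a neutrophil. Barcodes rich in the pair were thus not among these other cells, so its near absence there is partly set by how cells were chosen. The share at which free RNA appears in other cells was not tested.

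Among transcripts outside the rule, and apart from mitochondrial and ribosomal protein genes, the most abundant in neutrophils were Gm42418 (30676 CPM), the nuclear RNA Malat1 (23659 CPM), the actin-binding Tmsb4x (19653 CPM), Actb (11836 CPM) and the ferritin chain Fth1 (11397 CPM). Then came the chemokine Cxcl2 and the cytokine Il1b, ahead of Srgn, the core protein of granule proteoglycan, at 8486 CPM. Srgn stood at 1022 CPM in the monocyte gate and 286 CPM in Kupffer cells. Fth1 was 3.23-fold the monocyte gate's level (3.00 to 3.49), whereas Actb was 0.992-fold (0.942 to 1.04). Ftl1, the other ferritin chain, Actg1, the adaptor Tyrobp and the ribosomal fusion protein gene Fau followed at 5844, 5575, 4862 and 4367 CPM. Gadd45b, a stress-induced regulator of MAP kinase signalling, stood at 4358 CPM in neutrophils (4189, 3684 and 6277 CPM by suffix), 175 CPM in the monocyte gate and 23.4 CPM in Kupffer cells.

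Further genes ranked among the 20 with the largest ratio to both other groups. Slc7a11, the cystine importer, stood at 1516 CPM in neutrophils (1643, 1321 and 1720.4 CPM by suffix), 30.5 CPM in the monocyte gate and 0 in Kupffer cells, and 49 of 54 neutrophils held it. Cd24a, a glycosylated surface protein, stood at 643 CPM in neutrophils, 3.81 CPM in the monocyte gate and 1.23 CPM in Kupffer cells. Asprv1, an aspartic protease, stood at 652 CPM in neutrophils and had 0 UMIs in both other groups. Plk3, Sh2d3c and Il1rap stood at 578, 539 and 187 CPM in neutrophils against 3.81, 11.4 and 3.81 CPM in the monocyte gate. All 6 genes were found in neutrophils of every library.

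Granule genes differed in level between the granule lists and within them. All 7 primary granule genes, Mpo, Elane, Prtn3, Ctsg, Prss57, Ms4a3 and Bpi, which are transcribed in promyelocytes, had 0 UMIs in the neutrophils; a count of 0 allows up to 13.04 CPM (3 UMIs of the neutrophils' total). The 10 secondary granule genes, made in myelocytes and later, summed to 7382 CPM in neutrophils, 1297 CPM in the monocyte gate and 11.1 CPM in Kupffer cells. By suffix the sum was 4548 CPM in suffix 1, 11578 in suffix 2 and 3255 in suffix 3. The sum was thus largest in suffix 2, where the pair described below held 762 of the 1166 UMIs; without them suffix 2 stood at 4842 CPM. With 1000 UMIs drawn per cell the median neutrophil had 5 list UMIs in suffix 1, 3 in suffix 2 and 2 in suffix 3. Lcn2, an iron-siderophore binding protein, was the largest member with 1296, 4091 and 697 CPM in suffixes 1, 2 and 3. Mmp8, a collagenase, stood at 764, 1390.1 and 349 CPM. Without the pair suffix 2 had 1702 CPM of Lcn2 and 647 CPM of Mmp8. Pglyrp1, which binds bacterial peptidoglycan, was more even at 706, 1172 and 976 CPM. Against the monocyte gate 7 of 10 members were at least 2-fold higher, where 23.2% of all genes were. The summed ratio was 5.69 (5.06 to 6.42), with neutrophils higher in 2 of 3 libraries. Without suffix 2 the ratio was 1.79 and without suffix 3 it was 11.7. In the monocyte gate the list's counts came mainly from Hp, at 553 CPM there against 1499 CPM in neutrophils, and Chil3, at 534 CPM there against 400 CPM in neutrophils. Chil3 was also used to draw that gate.

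A pair of suffix 2 neutrophils stood apart. Ngp, Camp and Ltf, the defining secondary granule transcripts (neutrophilic granule protein, cathelicidin and lactoferrin), summed to 209 UMIs in one and 27 in the other; the next highest neutrophils, both of suffix 1, had 2 and 1 UMIs and the other 50 had none. The same pair gave 32.0% and 32.7% of their UMIs to S100a8 and S100a9, and had the highest UMI counts of all neutrophils, 9170 and 8112. They held 208 and 148 UMIs of Lcn2 plus Mmp8, and 31 and 0 UMIs of Il1b. Without them the secondary granule list was 3.39-fold the monocyte gate's level in place of 5.69-fold. Ngp at 1519 CPM and Camp at 635 CPM in suffix 2 rest on these cells, since suffix 3 had 0 UMIs of both and suffix 1 had 23.1 CPM of Ngp and 0 of Camp.

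Tertiary granule and secretory vesicle genes summed to 3237 CPM in neutrophils, 469 CPM in the monocyte gate and 3049 CPM in Kupffer cells. Mmp9, a gelatinase, stood at 943 CPM in neutrophils (764, 1182 and 744 CPM in suffixes 1, 2 and 3), 0 in the monocyte gate and 1.23 CPM in Kupffer cells, at least 82.4-fold higher than the monocyte gate with a floor of 3 UMIs for that gate. Adam8, a membrane protease, stood at 595 CPM in neutrophils (914, 457 and 279 CPM by suffix) and 15.3 CPM in the monocyte gate. The Kupffer sum came from other members: Cfp, the complement factor properdin, stood at 104 CPM in neutrophils and 1587 CPM in Kupffer cells, and Cd55 at 21.7 CPM in neutrophils and 532 CPM in Kupffer cells.

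Cytokines and chemokines were the most abundant group of secreted signals. The 19 genes summed to 28082 CPM in neutrophils (26638, 30076 and 26317 CPM in suffixes 1, 2 and 3), 3055 CPM in the monocyte gate and 1391 CPM in Kupffer cells. The sum was 9.19-fold (8.54 to 9.91) the monocyte gate's and 20.2-fold (18.9 to 21.5) the Kupffer cells', higher in 3 of 3 libraries in both comparisons. Of 14 members compared with the monocyte gate 13 were at least 2-fold higher and 1 lower, against 23.2% and 37.3% of all genes. Of 17 compared with Kupffer cells 13 were higher and 3 lower, against 15.6% and 39.8% of all genes. The ratio of cytokines and chemokines to the monocyte gate was 5.55 without suffix 2, whose monocyte gate had the lowest sum (1141 CPM, against 3900 and 6170 CPM in suffixes 1 and 3).

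Cxcl2 and Il1b carried most of that sum. Cxcl2, a ligand of CXCR2, stood at 10532.5 CPM in neutrophils, with 7822 CPM in suffix 1, 13633 in suffix 2 and 8718 in suffix 3, against 492 CPM in the monocyte gate and 56.6 CPM in Kupffer cells. It was found in 48 of 54 neutrophils (88.9%), 2 of 23 monocyte gate cells and 11 of 907 sinusoidal endothelial cells (1.21%). Il1b stood at 9290 CPM in neutrophils, with 9616, 7953 and 11764 CPM in suffixes 1, 2 and 3, against 507 CPM in the monocyte gate and 196 CPM in Kupffer cells. It was found in 52 of 54 neutrophils (96.3%), 7 of 23 monocyte gate cells and 12 of 907 endothelial cells (1.32%). Both transcripts were therefore high in neutrophils of every library. Across neutrophils Il1b had a median of 7857 CPM with quartiles of 3399 and 14257 CPM, and Cxcl2 a median of 7987 CPM with quartiles of 1910 and 16130.4 CPM. The median of Cxcl2 was 2879 CPM in suffix 1, 13113 in suffix 2 and 5911 in suffix 3, with overlapping cells.

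The promoter sequences of these genes are shown because both were the most abundant cytokine transcripts. The windows end at the base before the annotated start and are credited to RefSeq, GRCm38.p6: Il1b at chr2:129371140-129371389, minus strand, and Cxcl2 at chr5:90903649-90903870, plus strand. Capitals mark the TATA box letters TATAAA in Il1b and matches to the kB-like motif (GGG, any 3 bases, TTCC), on either strand, in Cxcl2.
Il1b: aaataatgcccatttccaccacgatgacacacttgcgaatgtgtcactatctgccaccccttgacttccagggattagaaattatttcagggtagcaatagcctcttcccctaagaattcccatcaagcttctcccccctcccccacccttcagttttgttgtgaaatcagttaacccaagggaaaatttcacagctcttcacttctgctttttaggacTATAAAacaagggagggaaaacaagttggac
Cxcl2: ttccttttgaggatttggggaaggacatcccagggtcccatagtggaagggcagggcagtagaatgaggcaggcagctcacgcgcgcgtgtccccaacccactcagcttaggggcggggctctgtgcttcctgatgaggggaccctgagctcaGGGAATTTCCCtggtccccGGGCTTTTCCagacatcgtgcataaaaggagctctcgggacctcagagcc
TATAAA lies 31 to 26 bases before the Il1b start. In Cxcl2 the first capitals hold 2 overlapping matches, on opposite strands, 69 to 60 and 68 to 59 bases before the start, and the second capitals lie 50 to 41 bases before it. TATAAA was found in 7.59% and the kB-like motif in 4.65% of the 32851 windows. The AP-1-like letters TGANTCA (6.75% of windows) and the ETS-like letters GAGGAA (23.3%) were not in these windows or in that of S100a9.

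Other cytokines were lower and less even. The chemokines Ccl3 and Ccl4 stood at 1464 and 1751 CPM in neutrophils against 72.5 and 221 CPM in the monocyte gate. Ccl4 had 2974 CPM in suffix 1, 1420 in suffix 2 and 69.7 in suffix 3, and was found in 18 of 54 neutrophils. A single cell held 49.0% of the Ccl4 UMIs of suffix 1 and 76.2% of those of suffix 2. Without these cells the levels were 1610.3 and 351 CPM. Ccl6, a constitutive chemokine of myeloid cells, was even at 1666, 2105 and 1837 CPM. Csf1, the macrophage growth factor, stood at 860.3 CPM in neutrophils, 3.81 CPM in the monocyte gate and 4.93 CPM in Kupffer cells. Il1rn, the interleukin 1 receptor antagonist, stood at 865 CPM in neutrophils, 95.3 CPM in the monocyte gate and 41.9 CPM in Kupffer cells. Tnf stood at 287 CPM in neutrophils and 7.63 CPM in the monocyte gate. Il6, Il10 and Cxcl3 had 0 UMIs in neutrophils. Cxcl10, an interferon-induced chemokine, had 57 UMIs in 3 neutrophils, 1 in each library; 45 of them lay in 1 suffix 3 cell, and over Kupffer cells its ratio was 2.26 with all libraries and 0.425 without suffix 3.

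Immediate early genes, transcribed within minutes of a stimulus, formed the largest list sum. The 18 genes stood at 35656 CPM in neutrophils (37064, 30909.9 and 43939 CPM in suffixes 1, 2 and 3), 4607 CPM in the monocyte gate and 1749.8 CPM in Kupffer cells. The ratio was 7.74 (7.28 to 8.23) to the monocyte gate and 20.4 (19.3 to 21.6) to Kupffer cells. At least 2-fold higher were 15 of 16 members compared with the monocyte gate and 17 of 17 compared with Kupffer cells, with 0 lower in both. Over all genes 23.2% and 15.6% were higher in these comparisons, and 37.3% and 39.8% lower. Junb, a subunit of AP-1, stood at 8377 CPM in neutrophils (8539.9, 6782 and 11787 CPM by suffix), 739.9 CPM in the monocyte gate and 186 CPM in Kupffer cells. Dusp1, a phosphatase that switches off MAP kinases, stood at 5027 CPM in neutrophils, 374 CPM in the monocyte gate and 230.3 CPM in Kupffer cells. Zfp36, which promotes decay of cytokine mRNAs, stood at 4919 CPM in neutrophils, 671 CPM in the monocyte gate and 169.9 CPM in Kupffer cells. All 54 neutrophils held Junb and Zfp36, so these transcripts were spread over the whole population. Jun was the exception among the abundant members, at 482 CPM in neutrophils and 393 CPM in the monocyte gate. The cells had been digested at a warm temperature before capture, and how far that step moved these transcripts was not tested.

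NF-kB and inflammasome genes summed to 14191 CPM in neutrophils (12798, 13017 and 19738 CPM by suffix), 2185 CPM in the monocyte gate and 2804 CPM in Kupffer cells. Of 13 members 10 were at least 2-fold higher than in the monocyte gate and 2 lower, against 23.2% and 37.3% of all genes. Compared with Kupffer cells 9 were higher and 2 lower, against 15.6% and 39.8% of all genes. Nfkbia, the inhibitor of NF-kB that NF-kB itself induces, had 4015 CPM in suffix 1, 4726 in suffix 2 and 7602 in suffix 3, against 706 CPM in the monocyte gate and 507 CPM in Kupffer cells. Nlrp3, the inflammasome sensor, stood at 1251 CPM in neutrophils, 34.3 CPM in the monocyte gate and 77.6 CPM in Kupffer cells. Its partners went the other way: Pycard, the adaptor, had 3 UMIs in neutrophils against 351 CPM in the monocyte gate and 99.7 CPM in Kupffer cells, and Casp1, the protease, at 34.8 CPM in neutrophils, 95.3 CPM in the monocyte gate and 71.4 CPM in Kupffer cells. Ptgs2, the inducible cyclooxygenase, stood at 1512 CPM in neutrophils and 34.3 CPM in the monocyte gate.

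Among 16 transcription factors, 7 of 13 compared were at least 2-fold higher than in the monocyte gate and 3 lower, against 23.2% and 37.3% of all genes. Cebpb, Junb and Mxd1, described above, led the list, and Klf2, a factor linked to quiescence, stood at 2116 CPM in neutrophils, 179 CPM in the monocyte gate and 239 CPM in Kupffer cells. Spi1 (PU.1), needed for all myeloid lineages, was close in level at 969 CPM in neutrophils, 721 CPM in the monocyte gate and 525 CPM in Kupffer cells. Cebpa and Gfi1, factors of granulocyte progenitors, had 1 and 3 UMIs, and Cebpe 6 UMIs. Irf8 and Klf4, factors of the monocyte branch, had 2 and 4 UMIs in neutrophils, against 141 and 183 CPM in the monocyte gate.

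**Figure D2:**
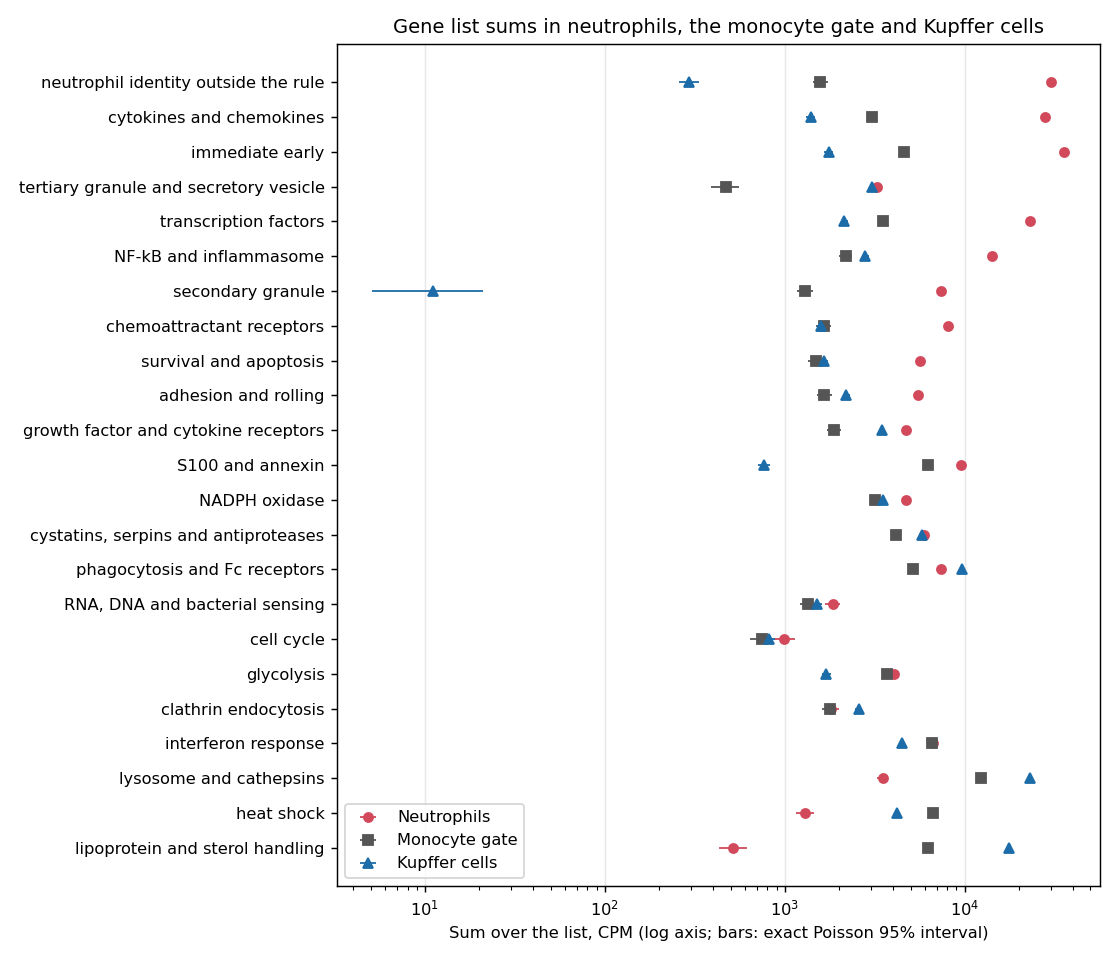
Summed CPM of 23 gene lists (rows) in neutrophils (circles), the monocyte gate (squares) and Kupffer cells (triangles) on a logarithmic x axis, with exact Poisson 95% intervals, ordered by the ratio of neutrophils to the monocyte gate. Cytokines and immediate early genes stand at 28082 and 35656 CPM in neutrophils, and lysosome genes at 3502 CPM in neutrophils against 12262 CPM in the monocyte gate.

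Receptors for chemoattractants summed to 8108 CPM in neutrophils, 1644 CPM in the monocyte gate and 1589 CPM in Kupffer cells. Of 9 members compared with the monocyte gate 7 were at least 2-fold higher and 1 lower, against 23.2% and 37.3% of all genes. Ccrl2, an atypical receptor that binds chemerin, stood at 2837 CPM in neutrophils and 129.7 CPM in the monocyte gate. Cxcr4, the receptor for CXCL12 that retains neutrophils in marrow, stood at 1403 CPM (1134, 1589 and 1511 CPM by suffix) and was found in 51 of 54 neutrophils. In the monocyte gate it stood at 99.2 CPM. Ccr1, Ptafr (the platelet-activating factor receptor) and C5ar1 (the complement C5a receptor) stood at 1304, 1008 and 912 CPM in neutrophils against 118, 141 and 26.7 CPM in the monocyte gate. Ccr2, the receptor that brings monocytes out of marrow, had 1 UMI in neutrophils and 995 CPM in the monocyte gate, and C3ar1 was at 0 in neutrophils. Of this list, Cxcr4 was thus found in 51, Ccr1 in 52 and C5ar1 in 51 of 54 neutrophils, while Cxcr1, Ccr2 and C3ar1 were nearly absent.

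Adhesion genes summed to 5514 CPM in neutrophils, 1659 CPM in the monocyte gate and 2199 CPM in Kupffer cells. Cd44, the hyaluronan receptor by which neutrophils attach in liver sinusoids, stood at 1981 CPM in neutrophils, 217 CPM in the monocyte gate and 639 CPM in Kupffer cells, with 2002, 1916 and 2092 CPM in suffixes 1, 2 and 3. Icam1 was uneven at 926, 199 and 744 CPM by suffix and was found in 17 neutrophils. Among cytokine receptors, which summed to 4732 CPM in neutrophils, 1884 CPM in the monocyte gate and 3489 CPM in Kupffer cells, Il1r2 held the largest part and Tnfrsf1a stood at 530.1 CPM in neutrophils against 118 CPM in the monocyte gate. Csf1r, the receptor for CSF1, stood at 143 CPM in neutrophils, 431 CPM in the monocyte gate and 1771 CPM in Kupffer cells.

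The 6 genes of the NADPH oxidase, which makes superoxide in phagosomes, summed to 4732 CPM in neutrophils, 3173 CPM in the monocyte gate and 3517 CPM in Kupffer cells. The cytosolic subunit Ncf1 was higher, at 1008 CPM in neutrophils against 160.2 CPM in the monocyte gate. The membrane subunit Cybb was lower, at 213 CPM in neutrophils, 896 CPM in the monocyte gate and 1501 CPM in Kupffer cells, while Cyba differed little at 1073 CPM in neutrophils and 1373 CPM in the monocyte gate. The subunits of 1 complex thus differed in direction.

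Lysosome genes were low. The 20 lysosome genes summed to 3502 CPM in neutrophils (3552, 3287 and 3906 CPM by suffix), 12262 CPM in the monocyte gate and 22995 CPM in Kupffer cells, ratios of 0.286 (0.264 to 0.309) and 0.152 (0.142 to 0.163) that were lower in 3 of 3 libraries. At least 2-fold lower were 13 of 19 members compared with the monocyte gate, with 3 higher, and 16 of 20 compared with Kupffer cells, with 1 higher, where 37.3% and 39.8% of all genes were lower in these comparisons. Ctss, a cathepsin of antigen processing, stood at 43.5 CPM in neutrophils, 1712 CPM in the monocyte gate and 2902 CPM in Kupffer cells. Ctsc, which activates the serine proteases of primary granules, had 2 UMIs in neutrophils against 706 CPM in the monocyte gate. Psap, the precursor of saposins, stood at 499.7 CPM in neutrophils, 3181 CPM in the monocyte gate and 3359 CPM in Kupffer cells. The 3 higher members were Ctsd, at 734 CPM in neutrophils and 236 CPM in the monocyte gate, Lamp2, at 343 CPM in neutrophils and 172 CPM in the monocyte gate, and the granule membrane protein Cd63, at 139 CPM in neutrophils and 64.8 CPM in the monocyte gate.

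Lipoprotein and sterol genes summed to 517 CPM in neutrophils, 6236 CPM in the monocyte gate and 17565 CPM in Kupffer cells, and 10 of 20 members had 0 UMIs in neutrophils. The ratio to the monocyte gate was 0.0829 (0.0683 to 0.0999), and 0.150 without suffix 2. The monocyte gate's sum was uneven at 999, 9264 and 7419 CPM in suffixes 1, 2 and 3. In neutrophils the sum was 555, 506 and 465 CPM. Of 13 members compared with the monocyte gate 7 were at least 2-fold lower and 1 higher, against 37.3% and 23.2% of all genes. Apoe carried most of the difference, at 169 CPM in neutrophils, 5362 CPM in the monocyte gate and 15322 CPM in Kupffer cells. Lrp1, Lrp8, Vldlr and Scarb1, receptors that take up lipoproteins, all had 0 UMIs in neutrophils. Because neutrophils held 230144 UMIs in all, each of these zeros allows up to 13.04 CPM. Lrp1 stood at 149 CPM in the monocyte gate and 523 CPM in Kupffer cells, and Scarb1 at 99.2 and 155 CPM in the monocyte gate and Kupffer cells. Clathrin endocytosis genes were at 1816 CPM in neutrophils, 1777 CPM in the monocyte gate and 2571 CPM in Kupffer cells. Picalm, a clathrin assembly protein, was the highest member at 704 CPM in neutrophils against 214 CPM in the monocyte gate, whereas the light chain Clta stood at 243 CPM in neutrophils and 603 CPM in the monocyte gate. Dab2 and Cltb had 0 UMIs in neutrophils.

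Phagocytosis and Fc receptor genes summed to 7408 CPM in neutrophils, 5191 CPM in the monocyte gate and 9674 CPM in Kupffer cells. Fcer1g, the signalling chain of Fc receptors, was the highest at 1625 CPM in neutrophils, 2048 CPM in the monocyte gate and 1744 CPM in Kupffer cells. Mertk, Axl and Msr1, receptors for apoptotic cells and modified lipoproteins, were at 0 in neutrophils, and Marco had 1 UMI in neutrophils and 2189 CPM in Kupffer cells. Cd300lf, Cd33 and Lilr4b, surface receptors of myeloid cells, stood at 756, 599.6 and 947 CPM in neutrophils. In the monocyte gate they stood at 72.5, 38.1 and 64.8 CPM. Lilr4b and Lilrb4a are near-identical copies, and reads could be split between them. RNA, DNA and bacterial sensors were sparse, with a sum of 1847 CPM in neutrophils, 1354 CPM in the monocyte gate and 1520 CPM in Kupffer cells. Tlr3, Tlr9, Mavs and Tmem173 (the older symbol of Sting1) had 0 UMIs in neutrophils, Tlr7 5 and Tlr8 2. By contrast Cd14 stood at 726 CPM and Tlr2 at 326 CPM. Without suffix 2 the sum's ratio to the monocyte gate was 0.767 in place of 1.36, and without suffix 3 it was 2.30.

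Heat shock genes were low in neutrophils of every library, at 1284, 1321 and 1279 CPM in suffixes 1, 2 and 3, against 6705 CPM in the monocyte gate and 4197 CPM in Kupffer cells. Of 10 members 9 were at least 2-fold lower than in the monocyte gate and 0 higher, against 37.3% and 23.2% of all genes. Hsp90ab1, a cytosolic chaperone, stood at 226 CPM in neutrophils, 1369 CPM in the monocyte gate and 1707 CPM in Kupffer cells. The stress-induced Hspa1a stood at 30.4 CPM in neutrophils, 988 CPM in the monocyte gate and 166 CPM in Kupffer cells. Heat shock and immediate early genes, which are both induced by stress of many kinds, therefore stood on opposite sides of the other myeloid cells.

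Survival genes summed to 5631 CPM in neutrophils, 1495.04 CPM in the monocyte gate and 1649 CPM in Kupffer cells. Mcl1, the short-lived BCL2 relative on which neutrophils depend, made up most of it at 3385 CPM in neutrophils (3356, 3118 and 4068 CPM by suffix), 530.1 CPM in the monocyte gate and 395 CPM in Kupffer cells, and was found in all 54 neutrophils. Bcl2 was at 0. Bcl2a1b stood at 652 CPM, though the Bcl2a1 copies are near-identical and reads could be split between them. Glycolysis genes were at 4028 CPM in neutrophils, 3699 CPM in the monocyte gate and 1703 CPM in Kupffer cells; Slc16a3, the lactate exporter, stood at 448 CPM in neutrophils against 22.9 CPM in the monocyte gate. Of 16 cell cycle genes 10 had 0 UMIs in neutrophils and Mki67 had 4 UMIs in 3 cells. The list's 995 CPM in neutrophils was nearly all Hmgb2, a chromatin protein, at 860.3 CPM, and its ratio to the monocyte gate was 1.34, but 0.852 with every cell thinned to 1000 UMIs.

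S100 and annexin genes outside the rule summed to 9489.7 CPM in neutrophils, 6289 CPM in the monocyte gate and 765 CPM in Kupffer cells, and they differed member by member. S100a11 stood at 4441 CPM in neutrophils against 603 CPM in the monocyte gate, and S100a6 at 3311 CPM in neutrophils against 1972 CPM. S100a4 and S100a10 were nearly absent, with 0 and 2 UMIs in neutrophils against 1991 and 473 CPM in the monocyte gate. Among antiproteases, Slpi, an inhibitor of elastase, stood at 2299 CPM in neutrophils, 248 CPM in the monocyte gate and 0 in Kupffer cells, and Wfdc21 at 1356 CPM in neutrophils and 3.81 CPM in the monocyte gate. Stfa2l1, a stefin, stood at 984, 645 and 139 CPM in suffixes 1, 2 and 3; the stefin genes Stfa1, Stfa2, Stfa2l1, Stfa3, BC100530 and Gm5483 are near-identical copies whose reads could be split or lost.

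The 10 genes most in favour of the monocyte gate were Crip1, H2-Aa, H2-Ab1, Cd74, H2-Eb1, Ccr2, Fn1, S100a4, Lgals1 and Aif1. Their counts in neutrophils were between 0 and 7 UMIs each. Fn1 was also used to draw that gate, so its place here follows in part from the gate. Crip1, a small LIM protein, had 1 UMI in neutrophils against 2704 CPM in the monocyte gate, and the class II genes H2-Aa, H2-Ab1 and H2-Eb1 had 3, 3 and 4 UMIs in neutrophils against 4825, 4477 and 4027 CPM.

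Interferon response genes differed between the libraries. The 25 genes summed to 3459.9 CPM in the neutrophils of suffix 1 (3079 to 3875), 8469.7 CPM in suffix 2 (7911 to 9058) and 9044 CPM in suffix 3 (8167 to 9988). The interval of suffix 1 lay below those of the other libraries. Such intervals count UMIs and leave out the spread between cells, which is described next. In the monocyte gate the same suffixes stood at 5518, 6564 and 8351 CPM, from only 7, 10 and 6 barcodes. In Kupffer cells they stood at 4311, 5109.6 and 4174 CPM. Suffix 1 was thus the lowest of the 3 in neutrophils and the monocyte gate but not in Kupffer cells. Pooled, the list was 1.02-fold the monocyte gate's (0.947 to 1.09), higher in 2 of 3 libraries. It was 1.49-fold (1.41 to 1.59) that of Kupffer cells, again in 2 of 3. Its members differed in direction. Of 24 compared with the monocyte gate, 9 were at least 2-fold higher and 5 lower, against 23.2% and 37.3% of all genes. In the monocyte gate Ifitm3 stood at 3187, 3704 and 4418 CPM by suffix, above its levels in neutrophils. Isg15 stood there at 95.1, 112 and 354 CPM and Rsad2 at 0, 0 and 18.6 CPM, below their summed levels in neutrophils. Without the top cell, suffix 3 neutrophils had 203 CPM of Isg15. That is below the monocyte gate's 354 CPM, from which no cell was left out.

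Few cells carried much of the interferon list's counts in neutrophils. The neutrophil with the most list UMIs held 16.1%, 22.04% and 40.1% of them in suffixes 1, 2 and 3, and without it the sums were 3050.1, 6798 and 5904 CPM. With every cell thinned to 1000 UMIs the median was 3 UMIs in suffix 1, 5.5 in suffix 2 and 7 in suffix 3; the quartiles were 1 and 5, 3 and 7.75, and 5 and 9.5 UMIs. Isg15, a ubiquitin-like protein induced by type I interferon, stood at 336 CPM in suffix 1, 1102 in suffix 2 and 814 in suffix 3. A single cell held 27 of the 35 Isg15 UMIs of suffix 3, and without the top cell of each library the levels were 219, 828 and 203 CPM, which puts suffix 3 below suffix 1. Rsad2 (viperin) stood at 46.3, 1072 and 372 CPM, with 57.4% of the suffix 2 UMIs in 1 cell and 12 of 16 suffix 3 UMIs in 1 cell. Ifitm3, which blocks viral entry, stood at 498, 1311 and 1465 CPM and was found in 42 of 54 neutrophils. Ifitm2, the list's highest member in neutrophils, is not reported here by suffix. Slfn4 stood at 150.4, 367 and 604 CPM by suffix, in 30 neutrophils, against 11.4 CPM in the monocyte gate and 1.23 CPM in Kupffer cells. Ifit1, Ifit2 and Ifit3 had 0 UMIs in suffix 1. Oasl2 kept the same order at 162, 318 and 488 CPM, and so did Ifi27l2a, named for its spread between libraries, at 231, 1291 and 1720.4 CPM. With 1 library per treatment and no map from suffix to treatment, a treatment, a mouse and a library cannot be told apart here.

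Other genes with a wide spread between libraries were Lyz2 (lysozyme), at 1527 CPM in suffix 1, 3177 in suffix 2 and 302 in suffix 3, and Slc20a1, a phosphate transporter, at 208, 79.4 and 558 CPM. In the monocyte gate Lyz2 stood at 16728 CPM. Suffix 3, with 11 neutrophils and 43014 UMIs, was the shallowest: a count of 0 there allows up to 69.7 CPM, against 34.7 CPM in suffix 1 and 29.8 CPM in suffix 2.

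**Figure D3:**
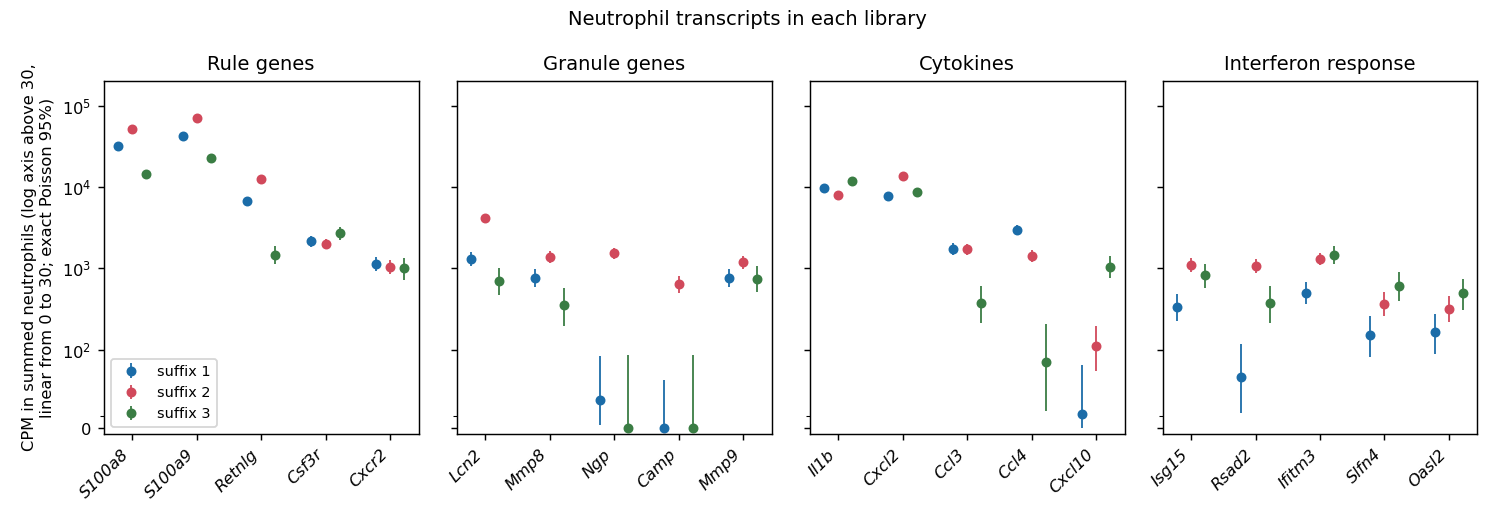
CPM in the summed neutrophils of suffix 1 (21 cells), suffix 2 (22 cells) and suffix 3 (11 cells) for genes of the rule, granules, cytokines and the interferon response; bars are exact Poisson 95% intervals and the y axis is logarithmic above 30 CPM and linear below. S100a8, Retnlg and Lcn2 are lowest in suffix 3; their summed levels are highest in suffix 2, where 2 cells hold 826 of 1253 Retnlg UMIs. Isg15 is 336 CPM in suffix 1 and 814 CPM in suffix 3, where 1 cell holds 27 of 35 UMIs.

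Single neutrophils were ranked against each other for each list after drawing 1000 UMIs per cell from the genes other than S100a8 and S100a9, so that these abundant transcripts did not lower the rest. Each value is Spearman's rho over 54 cells, which share 3 libraries, and is a description without a p-value. S100a8 plus S100a9 went with the other S100 and annexin genes (rho 0.74), with the secondary granule list (0.70) and with Retnlg (0.58), where both S100a8 plus S100a9 and Retnlg had been used to choose the cells. Within suffixes 1, 2 and 3, with S100a8 and S100a9 left in, the value for the secondary granule list was 0.56, 0.68 and 0.61, and that for Retnlg 0.71, 0.43 and 0.04. Among lists outside the rule, secondary granule genes went with S100 and annexin genes (0.64). Cytokines went with NF-kB genes (0.55), at 0.63, 0.62 and 0.29 within the libraries. The values were negative at -0.33 for S100a8 plus S100a9 against NF-kB genes and -0.45 for Retnlg against NF-kB genes. Against cytokines S100a8 plus S100a9 had a value of -0.08, and -0.28 when the pair was left in the drawn UMIs. Secondary granule genes against NF-kB genes had a value of -0.33.

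**Figure D4:**
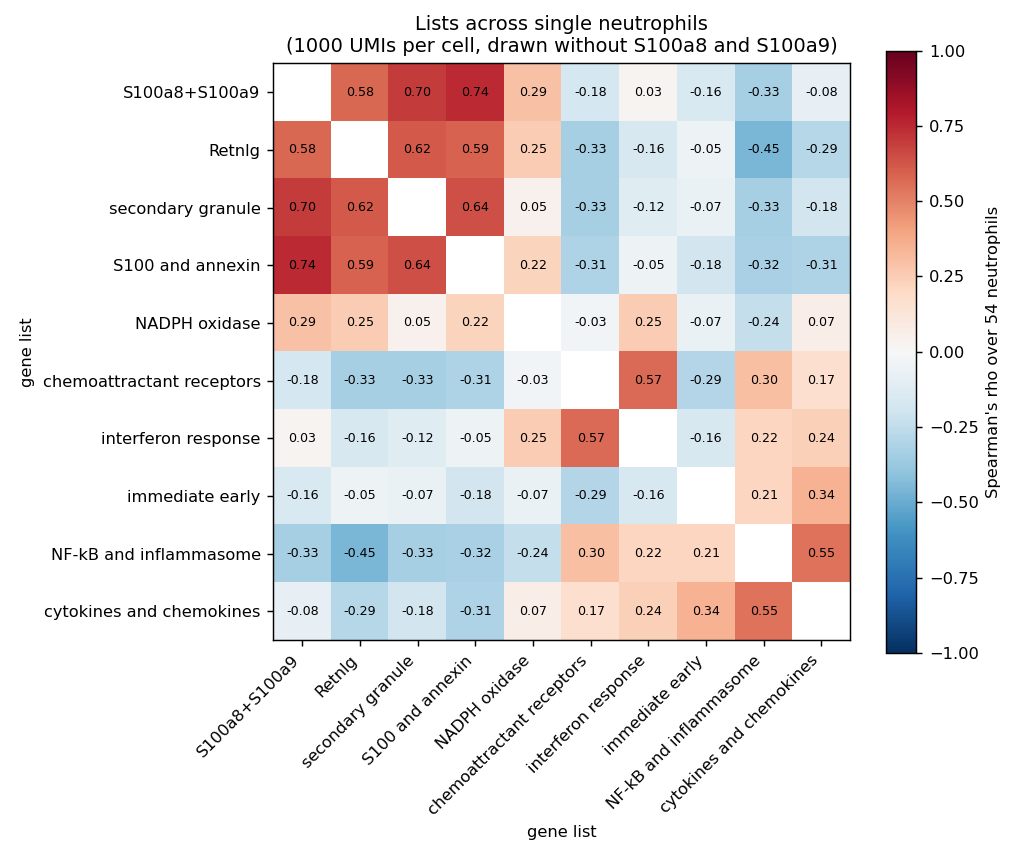
Spearman's rho between gene lists over 54 neutrophils, each drawn to 1000 UMIs without S100a8 and S100a9; both axes list the same gene lists and colour runs from -1 to 1. S100a8 plus S100a9, Retnlg, secondary granule and S100 and annexin genes form a positive block, with 0.70 between the pair and the granule list, and NF-kB genes are negative against each of them.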

How the data were processed

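Single-cell RNA of sorted mouse liver non-parenchymal cells was measured in 3 libraries, 1 per treatment. Raw UMI counts per gene and barcode were deposited by the authors as a single matrix, written by Cell Ranger 3.1.0 per the file headers. The build mm10 and the tools STAR, Seurat and edgeR stand in the submitters' processing notes without roles. Barcode suffixes could not be tied to treatments, so no groups were compared.

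Counts were summed over the cells of a group and scaled to CPM in Python 3.11.15 with numpy 2.4.6, pandas 2.3.3 and scipy 1.17.1. CPM have exact Poisson intervals, shares Clopper-Pearson intervals, and ratios exact intervals conditional on the summed count, all at 95%. No doublet caller was run. A count of 0 was set to 3 UMIs for a ratio. Genes needed at least 10 UMIs in both groups together, and 2-fold counted as past the limit. The ratio and its interval were tested on simulated Poisson counts, which held no spread between cells.

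The members, gene lists and alternatives were chosen with earlier results of these data known. The 24 lists held 347 different symbols, 344 of them in the matrix. Sting1, Cgas and Clec7a were not found under these symbols, but Tmem173 is the older symbol of Sting1 and was measured. Named genes were the 20 highest in neutrophils, the 20 with the largest ratio to both other groups, the 10 most in favour of the monocyte gate, the highest 2 to 5 members and the members at 0 of each list, and the 10 widest between libraries. Other list members named in the text, such as Jun, Cebpa, Pycard and Casp1, were chosen after their values were seen. Gene positions are from GENCODE, and promoters from RefSeq tables of GRCm38.p6. Alternatives changed the limits, the denominator, the scaling (TMM in edgeR 4.0.16, R 4.3.3), the depth and the libraries. Figures were drawn with matplotlib 3.10.9. Results for some list members are not reported here.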

Additional observations from a re-analysis of the deposited data

Results flagged for a closer look

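The barcodes that the limits on genes and mitochondrial UMIs removed held 189 UMIs of S100a8 and S100a9 together, 57.0 CPM of their UMIs, above the 0.905 CPM that a count of 0 allows. Of these, 172 lay in 1 barcode of suffix 1 with 4996 UMIs and 26.6% mitochondrial UMIs, which met both marker limits of the neutrophils. The other removed barcodes held 17.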

How the results depend on the processing

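The number of neutrophils was 58 and 49 with at least 10 and 50 UMIs of S100a8 and S100a9, 54 and 53 with at least 1 and 4 UMIs of Retnlg, Csf3r and Cxcr2, 48 with at most 10% mitochondrial UMIs, 54 with at least 500 genes, and 60 with 1 UMI of the pair and 5 of the others, a rule chosen after seeing the data. With 1 library left out at a time the share ran from 1.34% to 2.29%.

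List ratios are given in the order cytokines, immediate early, interferon, lysosome. Over the monocyte gate they were 10.1, 8.49, 1.11 and 0.313 without S100a8 and S100a9 in the denominator, 7.34, 6.18, 0.811 and 0.228 without mitochondrial and ribosomal protein genes, and 11.3, 9.52, 1.25 and 0.351 with TMM factors. Over Kupffer cells they were 22.1, 22.3, 1.64 and 0.167 in the first, 18.2, 18.4, 1.35 and 0.137 in the second, and 24.9, 25.2, 1.84 and 0.188 in the third. The interferon ratio thus changed side of 1 over the monocyte gate. Immediate early genes over the monocyte gate were 8.31 by the mean of per-cell CPM and 9.82 thinned to 1000 UMIs; over Kupffer cells they were 28.6, 27.7 and, without the pair rich in Ngp, 21.6. Cytokines over Kupffer cells were 25.2 when thinned. Interferon genes were 0.924 over the monocyte gate and 1.36 over Kupffer cells with at least 50 UMIs of the pair, 1.09 and 1.61 without neutrophils holding markers of another class, and 0.885 and 1.30 under the added rule, where lysosome genes were 0.310 and 0.165.

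With 1 library left out, cytokines ran from 5.55 to 12.6 over the monocyte gate and from 18.5 to 22.2 over Kupffer cells, immediate early genes from 6.64 to 10.3 and from 16.7 to 28.9, interferon genes from 0.803 to 1.22 and from 1.26 to 1.90, and lysosome genes from 0.274 to 0.293 and from 0.151 to 0.155. The secondary granule ratio over Kupffer cells was 666, 319 by the mean of per-cell CPM, and 397 without the pair rich in Ngp. Identity genes over the monocyte gate were 12.7 and lipoprotein genes 0.150 without suffix 2.

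Genes at least 2-fold higher and lower than in the monocyte gate numbered 1153 and 1857, and 442 and 289 thinned; without suffix 1, 2 or 3 the counts were 988 to 1106 and 1146 to 1654. Against Kupffer cells they were 1176 and 3007, 748 and 982 thinned, and 1039 to 1090 and 2236 to 2632 with 1 library left out; with no filter 2148 were higher. Fewer genes reach 10 UMIs when thinned. Of 288 ratios of named genes with a value when thinned, 122 moved by over 1.5 times. Over the monocyte gate, Csf1 was 8.38, Cd24a 6.10, Adam8 7.67, Ccl3 4.69, G0s2 25.8 and Gadd45b 102; a count of 0 in that thinned gate allows up to 130.4 CPM. Over the monocyte gate and thinned, Ifi27l2a was 1.10, Mylip 0.568, Nod1 0.994 and Pcna 0.710, each on the other side of 1. Over Kupffer cells Cxcl10 ran from 0.425 without suffix 3 to 5.53 without suffix 2, Lgals1 was 1.11 without suffix 1, 1.48 without suffix 2 and 0.248 without suffix 3, and S100a4 1.97 under the added rule; the cause was not tested. No paired analysis was possible because each treatment has 1 library and no test was made.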
